A study of Mus musculus with 4 samples.

Results

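Fatty acid oxidation was examined through 33 genes of the mitochondrial and peroxisomal beta-oxidation pathways, of electron transfer from them, and of the peroxisome proliferator-activated receptors (PPARs), their coactivators and their targets. The genes were listed by name, and all probes whose RefSeq accession belongs to one of them were taken. All 33 genes had a probe, out of 19751 genes with a probe on the array, and 32 of them were among the 15123 genes measured. A gene counted as measured where WT or Bach2KO had its probe well above background on both of its arrays, and the brightest probe stood for its gene. All 32 were well above background on all 4 arrays, so none entered through 1 genotype alone. The exception was Ppargc1a, described with the coactivators.

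Alveolar macrophages, the phagocytes of the lung airspaces, came from wild-type mice (WT) and from mice lacking the transcription repressor Bach2 (Bach2KO). Cells of 8 WT mice were pooled, and those of 4 Bach2KO mice per the treatment protocol or 3 per the series design, and were sorted by flow cytometry. Per the labels, a genotype's 1 RNA sample was split into 2 portions that were separately amplified, labelled with Cy3 and hybridised, giving 2 WT and 2 Bach2KO arrays. Strain, sex, age and the sorting gate are not given in the sources used here, and neither is the part of Bach2 that was deleted. The SDs below are over 2 arrays of 1 RNA sample and measure labelling and hybridisation alone, so differences between genotypes have no replicate check and no p-value. In such RNA, fewer cells of a type and less RNA per cell cannot be told apart.

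Fatty acids enter mitochondria as carnitine esters and are shortened there by repeated rounds of dehydrogenation, hydration, oxidation and thiolysis, while peroxisomes shorten very long and branched chains. PPARs are nuclear receptors that bind fatty acids, pair with retinoid X receptors (RXRs) and induce many of these enzymes. Alveolar macrophages take up large amounts of surfactant lipid, and Pparg is the PPAR best known for its role in them.

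Levels are given as log2 signal relative to the 75th percentile of the same array, and differences as Bach2KO minus WT on that scale. Signals of different probes are not comparable with each other. The percentile itself was 1267 and 1513 intensity units for WT and 1036 and 979 for Bach2KO, with 27125 to 27918 of 39429 probes well above background per array. The spike-in controls ran the other way, with mean signals of 1686 and 1862 units in WT and of 2093 and 2159 in Bach2KO. Scaling to them lowered every difference by 0.72, which moved the median of all measured genes from 0.06 to -0.66 and the share of calls that were higher from 58.6% to 16.3%. The order of the genes' differences is the same under either scaling. Each difference is therefore also placed by its percentile among the 15123 differences, where a low percentile means lower in Bach2KO than most genes.

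The cell label was checked against 16 alveolar macrophage markers. All 15 with a probe used here were well above background in both genotypes, 7 of them lower in Bach2KO by the 2-fold rule given below, 1 higher and 7 neither. Their summed signal, in multiples of the 75th percentile, was 1167 to 1323 on the WT arrays and 821 to 823 on the Bach2KO arrays. Siglecf, 1 of those called lower, was 5.38 and 5.25 in WT and 1.72 and 1.61 in Bach2KO. Fabp4, the marker called higher, was 3.86 and 3.79 in WT and 5.41 and 5.41 in Bach2KO, a call that ended with spike-in scaling. Both Bach2KO arrays were below both WT arrays for 9 of the 15 markers and above them for 6, beside 39.5% and 45.6% of all measured genes. The only Bach2 probe was well above background on 1 array of each genotype and gave no check of the labels.

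As a set, the oxidation and PPAR genes were mostly lower in Bach2KO, by small amounts. A call of lower or higher required a difference of 2-fold or more (1 on the log2 scale) in each of the 4 comparisons of 1 Bach2KO array with 1 WT array. It is a criterion of effect size, without a test. Cpt1a, Ehhadh, Hsd17b4, Acot2 and Angptl4 were called lower and none was called higher. These 5 of 32 genes are 15.6%, beside 5.9% of all measured genes called lower and 8.36% called higher. The median difference of the 32 genes was -0.31, from -1.91 for Acot2 to 0.86 for Crat, and 23 of them lay below the median of all measured genes.

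With no limit on size, the arrays of the genotypes did not overlap for most of these genes, as for most measured genes. The counts that follow include the 5 genes called lower. Both Bach2KO arrays were below both WT arrays for 22 of 32 genes, or 68.8%, beside 39.5% of all measured genes, and above them for 9, or 28.1%, beside 45.6%. Among the 32 genes the arrays overlapped for Ppara alone, beside 2255 of the 15123 measured genes. The arrays of 1 RNA sample differed by at most 0.25 for any of these genes in WT (Ehhadh) and 0.21 in Bach2KO (Hadha), with an SD over the 32 genes of 0.10 and 0.08. With spike-in scaling 12 genes were called lower and 0 higher, beside 21.3% and 4.15% of all measured genes, and the median was -1.04. Both Bach2KO arrays then lay below both WT arrays for 29 genes and above them for 0, beside 80.5% and 11.8% of all measured genes.

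**Figure D1:**
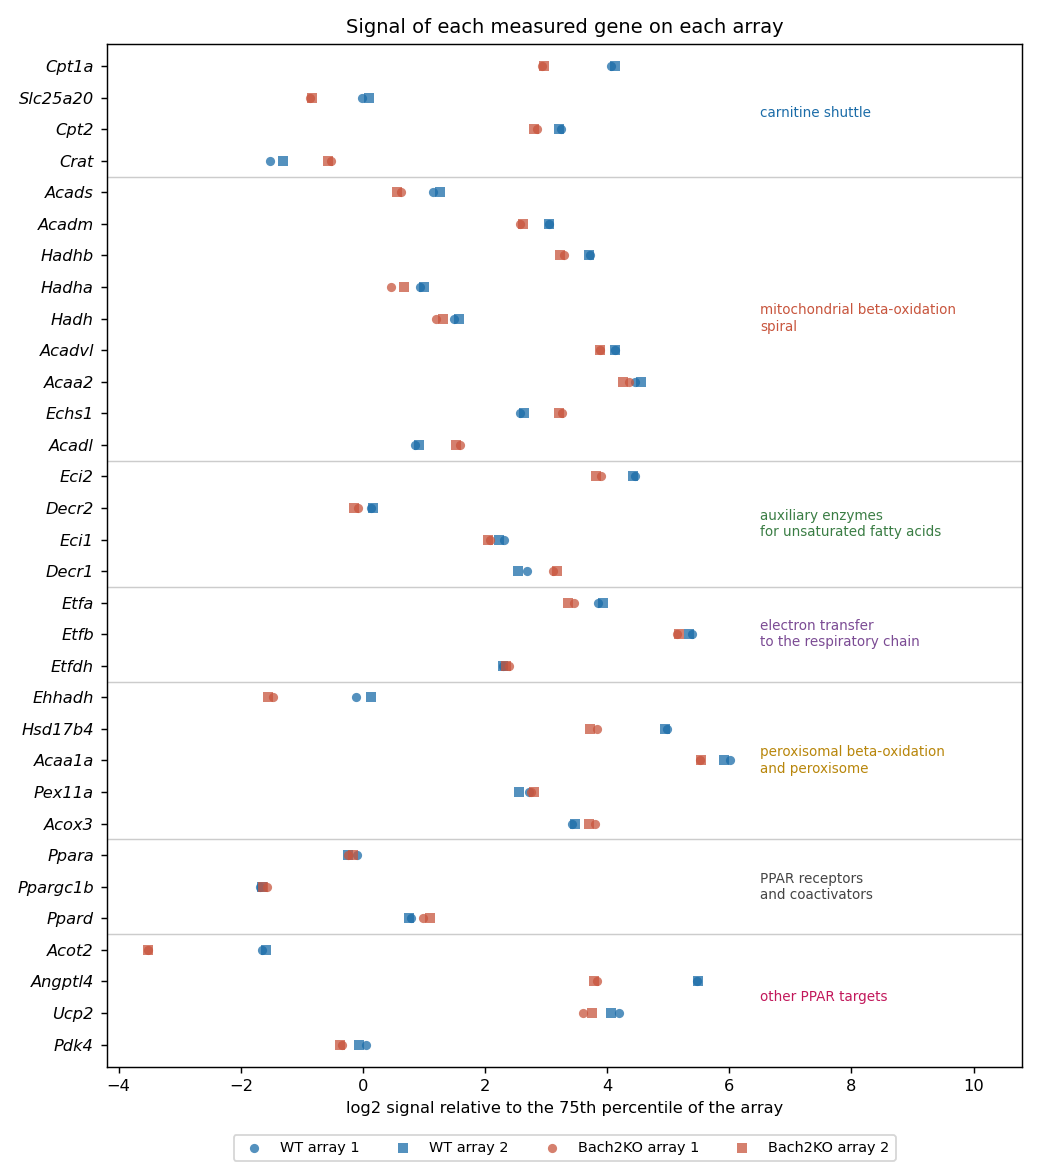
Log2 signal relative to the 75th percentile of the array (horizontal axis) for the 32 measured genes, grouped by role, with circles for array 1 and squares for array 2, blue for WT and orange for Bach2KO. The arrays of a genotype lie within 0.25 of each other, and Acot2, Angptl4, Ehhadh, Hsd17b4 and Cpt1a have the widest gaps between genotypes.

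**Figure D2:**
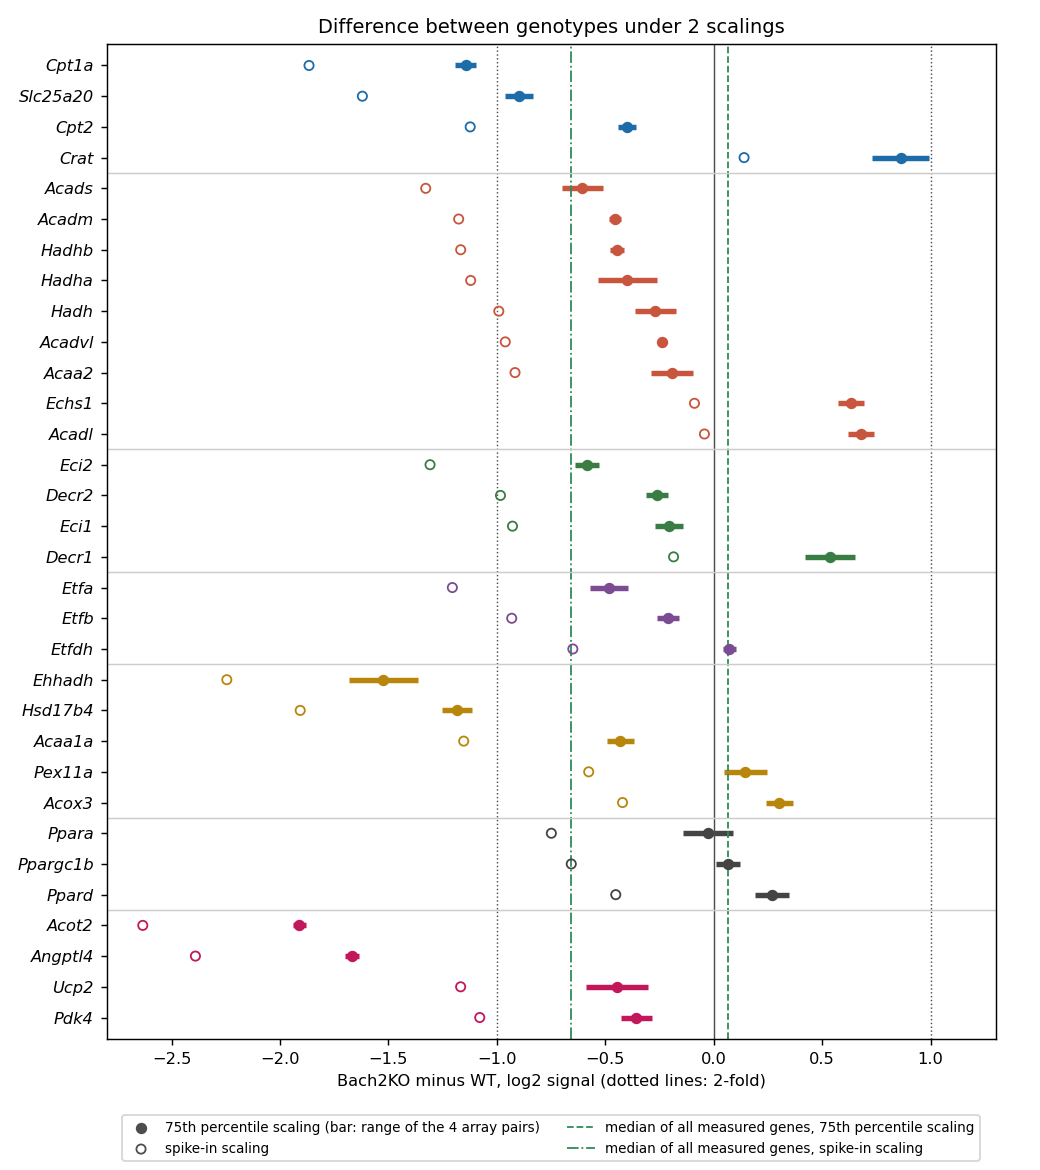
Bach2KO minus WT log2 signal (horizontal axis) of each gene, as a filled point with a bar over the 4 array pairs after 75th percentile scaling, and as an open circle after spike-in scaling. Dotted lines mark 2-fold and the green lines the medians of all measured genes, 0.06 and -0.66.

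The carnitine shuttle, which carries acyl groups across the mitochondrial membranes, had 3 genes lower and 1 higher on all arrays. Of all measured genes 39.5% were lower and 45.6% higher on all arrays. Cpt1a encodes the outer membrane transferase that forms acylcarnitines and is held to set the rate of oxidation. Its log2 signals were 4.06 and 4.12 in WT and 2.93 and 2.97 in Bach2KO. The means of 4.09 ± 0.04 and 2.95 ± 0.03 (SD, n = 2 arrays) did not overlap, and the signal was 2.21-fold lower, with pairs from -1.19 to -1.10. A dimmer probe of Cpt1a gave a difference of -1.37, so both probes passed 2-fold.

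The 250 bases before the Cpt1a start (RefSeq, GRCm38.p6, chr19:3323051-3323300, plus strand) are shown because Cpt1a was called lower, is a known PPAR target and holds the nuclear receptor hexamer AGGTCA on the minus strand, which is in capitals and begins 94 bases before the start. Sequences here run 5′ to 3′ on the strand named.
Cpt1a: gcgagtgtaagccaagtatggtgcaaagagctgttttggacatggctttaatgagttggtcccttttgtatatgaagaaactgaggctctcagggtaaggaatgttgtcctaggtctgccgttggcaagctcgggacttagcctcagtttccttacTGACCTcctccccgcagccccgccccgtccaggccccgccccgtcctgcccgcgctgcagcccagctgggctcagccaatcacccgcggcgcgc

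Slc25a20, the inner membrane carrier that exchanges acylcarnitine for carnitine, was -0.01 and 0.10 in WT and -0.87 and -0.84 in Bach2KO. Its difference of -0.90 was 1.86-fold and stayed inside the 2-fold limit, at percentile 8.87 of all differences. Cpt2, which turns acylcarnitines back into acyl-CoA inside the mitochondrion, was 3.25 and 3.21 against 2.85 and 2.80, a difference of -0.40, and -0.56 by its dimmer probe. Crat, which moves acetyl groups between carnitine and coenzyme A, went the other way. It was -1.52 and -1.31 in WT and -0.52 and -0.58 in Bach2KO, a difference of 0.86 that was the highest of the set. Its pairs ran from 0.73 to 0.99, so its arrays did not overlap but it was not called higher. Crat was also the only gene of the set whose difference stayed above 0 with spike-in scaling, at 0.14.

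None of the 9 enzymes of the mitochondrial beta-oxidation spiral passed 2-fold, beside 5.9% of all measured genes called lower and 8.36% called higher. On all arrays 7 of the 9 (77.8%) were lower, beside 39.5% of all measured genes. The acyl-CoA dehydrogenases, which carry out the opening step on chains of different length, did not move alike. The short-chain enzyme gene Acads was 1.14 and 1.25 in WT and 0.63 and 0.55 in Bach2KO, a difference of -0.61. The medium-chain gene Acadm was 3.04 and 3.05 against 2.57 and 2.61, a difference of -0.45, and the very-long-chain gene Acadvl 4.12 and 4.12 against 3.88 and 3.89, a difference of -0.24. The long-chain gene Acadl was instead higher, at 0.85 and 0.91 in WT and 1.59 and 1.53 in Bach2KO. Its difference of 0.68 lay at percentile 84.0 and became -0.04 with spike-in scaling.

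The mitochondrial trifunctional protein catalyses the later steps for long chains, and its subunit genes differed by similar amounts. Hadha was 0.934 and 0.998 in WT and 0.46 and 0.67 in Bach2KO, a difference of -0.40. Hadhb was 3.71 and 3.70 in WT and 3.29 and 3.23 in Bach2KO, a difference of -0.44. The genes lie head to head with 272 bases between their starts, and the 228 bases held by both promoter windows (RefSeq, GRCm38.p6, chr5:30155003-30155230, plus strand) are shown because these genes share them. None of the 5 motifs described below was found in either promoter window.
Hadha and Hadhb: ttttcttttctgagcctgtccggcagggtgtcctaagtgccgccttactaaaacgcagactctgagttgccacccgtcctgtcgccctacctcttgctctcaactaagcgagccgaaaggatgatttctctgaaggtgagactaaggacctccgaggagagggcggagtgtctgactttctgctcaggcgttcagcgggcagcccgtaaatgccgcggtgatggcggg

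The enzymes for shorter chains were split. Echs1, the short-chain enoyl-CoA hydratase gene, was 2.57 and 2.63 in WT and 3.26 and 3.21 in Bach2KO, a difference of 0.63 that became -0.09 with spike-in scaling. Hadh, the short-chain hydroxyacyl-CoA dehydrogenase gene, was 1.49 and 1.57 against 1.20 and 1.32, a difference of -0.27. The thiolase gene Acaa2, which ends each round, was 4.45 and 4.54 against 4.35 and 4.25, a difference of -0.19 with pairs from -0.29 to -0.10. Acadl and Echs1 were thus the 2 enzymes of the spiral above 0, and both lay below 0 with spike-in scaling.

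Unsaturated fatty acids need auxiliary isomerases and reductases, and here too 1 gene stood above 0. The mitochondrial dienoyl-CoA reductase gene Decr1 was 2.69 and 2.53 in WT and 3.12 and 3.19 in Bach2KO, a difference of 0.54, with 0.41 by its dimmer probe and -0.19 with spike-in scaling. Its peroxisomal counterpart Decr2 was 0.13 and 0.16 against -0.09 and -0.15, a difference of -0.26. The enoyl-CoA isomerase genes Eci1 and Eci2 differed by -0.21 and -0.59. Eci2, whose product acts in peroxisomes as well, was 4.45 and 4.43 in WT and 3.90 and 3.81 in Bach2KO.

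Electrons from the acyl-CoA dehydrogenases pass through the electron transfer flavoprotein to ubiquinone. Its alpha subunit gene Etfa was 3.86 and 3.93 in WT and 3.46 and 3.36 in Bach2KO, a difference of -0.48, and -0.28 by its dimmer probe. The beta subunit gene Etfb was 5.40 and 5.34 against 5.14 and 5.18, a difference of -0.21. Etfdh, which encodes the oxidoreductase that hands the electrons to ubiquinone, differed by 0.07, close to the median of all measured genes and below 0 with median centring and spike-in scaling.

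In the peroxisomal pathway the bifunctional enzyme genes, whose products carry out its middle steps, were called lower. Ehhadh was -0.12 and 0.13 in WT and -1.48 and -1.56 in Bach2KO, means of 0.01 ± 0.17 and -1.52 ± 0.05 (SD, n = 2 arrays), 2.87-fold lower and at percentile 3.60. Hsd17b4, the multifunctional enzyme gene for branched and very long chains, was 4.98 and 4.94 in WT and 3.83 and 3.72 in Bach2KO, 2.27-fold lower. The arrays of the genotypes were more than 2-fold apart in every pair for both genes. The 250 bases before the Ehhadh start (RefSeq, GRCm38.p6, chr16:21787835-21788084, minus strand) are shown because Ehhadh was called lower, and they hold none of the 5 motifs.
Ehhadh: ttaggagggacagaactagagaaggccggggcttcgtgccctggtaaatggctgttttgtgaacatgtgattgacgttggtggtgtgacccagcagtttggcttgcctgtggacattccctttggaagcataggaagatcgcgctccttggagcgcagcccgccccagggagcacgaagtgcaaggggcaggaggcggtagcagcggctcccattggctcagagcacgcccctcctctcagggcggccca

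Within the set, genes of the steps before and after the bifunctional enzymes differed less. Outside it, the thiolase gene Acaa1b, given below, differed more than Ehhadh and Hsd17b4. Acox3, an acyl-CoA oxidase gene for branched chains, was 3.43 and 3.47 in WT and 3.79 and 3.71 in Bach2KO, a difference of 0.30, and 0.33 by its dimmer probe. The peroxisomal thiolase gene Acaa1a was 6.01 and 5.91 against 5.52 and 5.54, a difference of -0.43. Pex11a, which promotes peroxisome division and is induced by PPAR activators, was 2.71 and 2.56 against 2.76 and 2.81, a difference of 0.15. With spike-in scaling Acox3 and Pex11a lay below 0, at -0.42 and -0.58.

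Acaa1a has a near-identical neighbour, Acaa1b, and a probe of either may bind both transcripts, so these values are uncertain. The probe assigned to Acaa1b was 3.09 and 3.10 in WT and 1.26 and 1.25 in Bach2KO, 3.58-fold lower.

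The 3 measured receptor and coactivator genes of the set differed by -0.03 to 0.27, beside a median of 0.06 for all measured genes. Outside the set, the coactivator genes Ncoa1, Ncoa2 and Lpin1 were called lower and are given below, where no gene of their list was called higher. Ppara, the PPAR that drives fatty acid oxidation in liver and heart, was -0.11 and -0.25 in WT and -0.25 and -0.16 in Bach2KO, so the arrays overlapped and the difference was -0.03. These values rest on 1 probe, and the other Ppara probes were not well above background on any array. Ppard, the broadly expressed PPAR, was 0.79 and 0.75 against 0.98 and 1.10, a difference of 0.27 that became -0.45 with spike-in scaling. The coactivator gene Ppargc1b was -1.69 and -1.65 against -1.57 and -1.64, a difference of 0.06 at percentile 50.1, below 0 with median centring and spike-in scaling. Ppargc1a, the coactivator gene known for mitochondrial biogenesis, was not well above background on any array by either of its 2 probes, and no difference is given. The third PPAR, Pparg, was 4.69 and 4.63 in WT and 4.54 and 4.57 in Bach2KO.

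Of the remaining PPAR targets, Acot2 and Angptl4 were called lower. Acot2 encodes a mitochondrial thioesterase that releases free fatty acids from acyl-CoA. Its log2 signals were -1.65 and -1.59 in WT and -3.53 and -3.53 in Bach2KO, 3.76-fold lower and at percentile 2.39. Angptl4, a secreted inhibitor of lipoprotein lipase, was 5.47 and 5.48 in WT and 3.84 and 3.78 in Bach2KO, means of 5.48 ± 0.01 and 3.81 ± 0.04 (SD, n = 2 arrays), 3.18-fold lower. Both were also called with a 3-fold limit, which Cpt1a, Ehhadh and Hsd17b4 did not reach. After normexp, a model-based background correction, the difference of Acot2 was smaller, at -1.23 with percentile scaling and -1.37 with quantile normalization against -1.91, still lower by the 2-fold rule. Acot2 then lay behind Angptl4 (-1.71 and -1.85) and Ehhadh (both -1.41).

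Acot2 adjoins its close relative Acot1, which encodes a cytosolic thioesterase, and their probes may bind both transcripts. The probe assigned to Acot1 was 3.74 and 3.67 in WT and -0.25 and -0.29 in Bach2KO, 15.7-fold lower. The 250 bases before the Acot2 start (RefSeq, GRCm38.p6, chr12:83987611-83987860, plus strand) are shown because Acot2 was called lower, and they hold none of the 5 motifs.
Acot2: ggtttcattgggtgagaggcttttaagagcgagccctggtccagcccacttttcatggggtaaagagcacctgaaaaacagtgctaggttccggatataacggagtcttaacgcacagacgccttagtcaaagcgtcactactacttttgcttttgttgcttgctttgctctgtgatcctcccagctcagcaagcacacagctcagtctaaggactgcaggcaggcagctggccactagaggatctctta

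Pdk4 and Ucp2 were lower on all arrays by less than 2-fold. Pdk4, which restrains pyruvate oxidation by phosphorylating pyruvate dehydrogenase, was 0.04 and -0.06 in WT and -0.35 and -0.38 in Bach2KO, a difference of -0.36. Ucp2, a carrier of the inner mitochondrial membrane, was 4.19 and 4.06 against 3.60 and 3.75, a difference of -0.45. With spike-in scaling the difference of Pdk4 was -1.08 and that of Ucp2 -1.17, and Ucp2 was called.

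**Figure D3:**
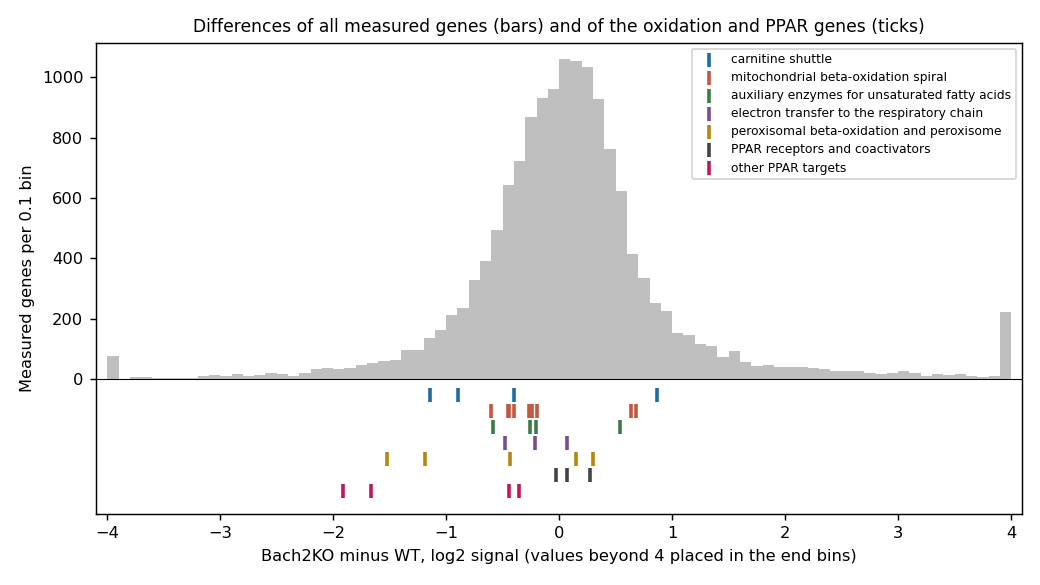
Number of measured genes (vertical axis) per 0.1 step of the Bach2KO minus WT difference in log2 signal (horizontal axis), with ticks for the 32 oxidation and PPAR genes by role. The 15123 genes centre on a median of 0.06, and the PPAR targets and peroxisomal genes hold 4 of the 5 lowest ticks.

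Promoter windows of 300 bases, 250 before and 50 after the gene start, were found for 27 of the 33 genes and searched on both strands for 5 motifs. No window was found for Acaa2, Angptl4, Crat, Decr1, Hsd17b4 and Ppargc1b, so the called genes Angptl4 and Hsd17b4 were not searched. The PPAR-RXR element, written as 2 copies of AGGTCA with 1 base of any kind between them, was in 0 of 27, beside 0.0396% of the 32851 windows of the table. The hexamer AGGTCA, which that element contains, was in 4 (Acadm, Acadvl, Cpt1a and Echs1), or 14.8%, beside 16.3%. The Maf recognition and CNC core TGACTCAGC, part of the sequence that Bach2 binds, was in 0 of 27, beside 0.454%. The ETS core CCGGAAG, bound by GABP, was in 3 (Cpt2, Pex11a and Slc25a20), or 11.1%, beside 8.86%, and the NRF1 core GCGCATGC in 4 (Acadm, Etfa, Etfdh and Ppara), or 14.8%, beside 2.71%. Genes with an NRF1 core differed by -0.45, -0.48, 0.07 and -0.03 in that order. A match is a description of letters and no evidence of binding. The PPAR-RXR element and the Maf and CNC core are so rare over all windows that a count of 0 cannot set these genes apart.

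Related genes outside the set were counted from lists of the same pathways. Among 22 measured genes of further fatty acid oxidation and ketone metabolism, 2 were called higher and 2 lower. These are 9.09% each, beside 8.36% and 5.9% of all measured genes. The median difference of the 22 genes was 0.18. Acat1, which encodes a thiolase of ketone body metabolism, was 2.59-fold lower. The leucine-degrading dehydrogenase gene Ivd was 2.56-fold and the fatty acid transport gene Slc27a1 2.48-fold higher, calls of Ivd and Slc27a1 that ended with spike-in scaling (0.63 and 0.59). The list as a whole had 13 genes above 0 and 9 below, and 23 of the 32 genes of the set lay below 0. Of all 15123 measured genes 6902 lay below 0. With spike-in scaling the list had 4 genes above 0 and 18 below, with a median of -0.54, and 31 of the set lay below 0. So did 12851 of the 15123 measured genes, whose median was then -0.66.

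Among 31 further peroxisome genes, 3 (9.68%) were called higher and 1 (3.23%) lower, beside 8.36% and 5.9% of all measured genes. The median of the list was 0.09. Pex26, which anchors the peroxisomal import machinery, was 2.50-fold higher, and the other peroxin genes lay between -0.56 and 0.45. Ephx2, an epoxide hydrolase gene, was -4.27 and -4.23 in WT and 0.18 and 0.22 in Bach2KO, 21.9-fold higher. Its difference of 4.45 became 3.50 and 3.39 in the normexp settings. Amacr, a racemase gene for branched chains, was 3.01-fold higher. Acaa1b was the gene called lower. With spike-in scaling Ephx2 alone of the 3 was still called higher, and the median of the list was -0.63.

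Further PPAR targets went both ways, with 6 of 21 higher, 5 lower and 10 neither. The calls are 28.6% higher and 23.8% lower, beside 8.36% and 5.9% of all measured genes. Fabp1, a fatty acid-binding protein gene, was 5.77 and 5.51 in WT and -1.51 and -1.62 in Bach2KO, and the lipid droplet gene Cidec 5.61 and 5.60 against -0.42 and -0.57. The redox sensor gene Txnip was 3.08-fold lower, Acot1 is given above, and Ucp1, not well above background in Bach2KO, at least 2.30-fold lower. In the other direction, the malic enzyme gene Me1 was 5.54-fold, the scavenger receptor gene Cd36 4.03-fold, Fabp4 3.00-fold and Fabp5 2.93-fold higher, and the lipase gene Mgll and the transcription factor gene Creb3l3 2.68-fold each. Me1 and Cd36 were also called with spike-in scaling, and the other 4 were not. Creb3l3 (0.74 and 0.49) and Ucp1 (-0.31 and -0.62) were not called in either normexp setting, where 5 genes of the list were higher and 4 lower. Ucp1 also lost its call without WT replicate 2, and Fabp5 with quantile normalization (1.16). The list's median was 0.31, and -0.41 with spike-in scaling.

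Among partners of the PPARs and regulators of mitochondrial genes, 4 of 26 were lower, none higher and 22 neither. The 4 genes are 15.4%, beside 5.9% of all measured genes called lower. Both Bach2KO arrays were below both WT arrays for 22 of the 26 genes, or 84.6% beside 39.5%, with a median of -0.52. With spike-in scaling 16 genes, or 61.5% beside 21.3%, were called lower, and the median was -1.25. The corepressor gene Nrip1 was 4.09-fold lower, the coactivator genes Ncoa1 and Ncoa2 2.43-fold and 2.13-fold, and Lpin1, whose product makes diacylglycerol and coactivates PPARs, 2.25-fold. The call of Ncoa2 ended after normexp with quantile normalization, at -0.99. Of the 3 RXR genes, Rxra was -0.63 and -0.61 in WT and -1.56 and -1.55 in Bach2KO, 1.91-fold lower. Rxrb, at 3.52 and 3.53 against 3.32 and 3.36, differed by -0.185, and Rxrg by -0.17. Esrra, which encodes a nuclear receptor of mitochondrial genes, was 1.37-fold lower. Neither Rxra nor Esrra met the 2-fold condition, although both did with spike-in scaling.

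**Figure D4:**
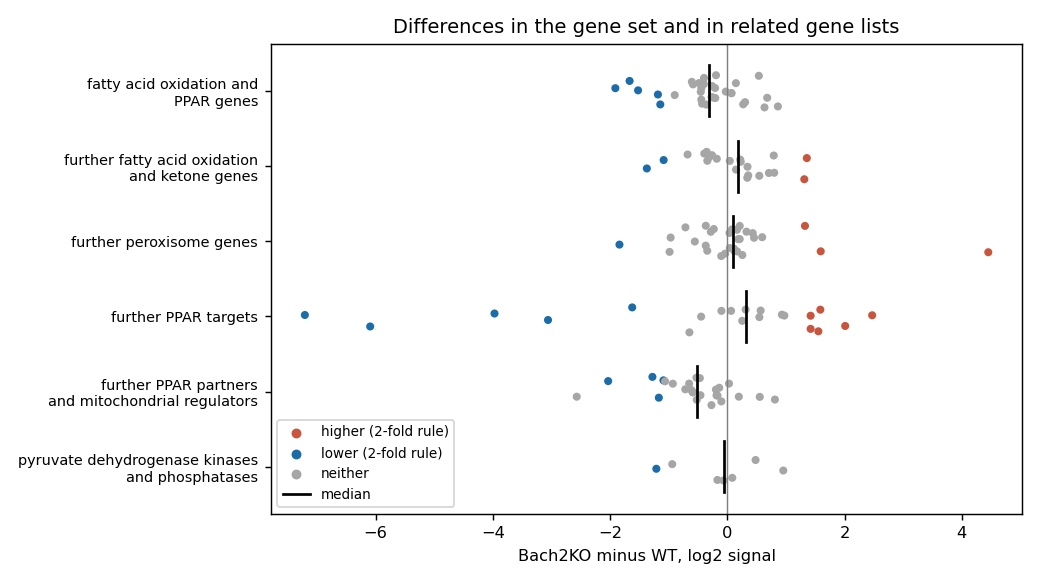
Bach2KO minus WT difference in log2 signal (horizontal axis) of each measured gene in the set of 32 and in 5 related lists, in blue where called lower, orange where called higher and grey otherwise, with a black line at the median. Genes not well above background in Bach2KO are drawn at their measured difference, and the medians of the lists run from -0.52 to 0.31.

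Markers of other cells also differed between the genotypes, beside 8.36% of all measured genes called higher and 5.9% called lower. Of 9 measured monocyte and interstitial macrophage markers 4 were higher, 1 lower and 4 neither, and their summed signal was 52.7 to 54.2 on the WT arrays and 60.8 to 61.7 on the Bach2KO arrays. Of 8 neutrophil markers 3 were higher and none lower, with sums of 3.83 to 4.04 and 23.1 to 25.1, and S100a9 and Retnlg were not well above background in WT. Of 8 T cell markers 5 were higher and none lower, with sums of 6.76 to 7.54 and 13.5 to 13.8, and Cd3d, Cd3g and Il7r were not well above background in WT. With spike-in scaling and in both normexp settings 3 of the 8 were higher. The largest difference of the list was that of Il7r, from -7.91 and -7.82 to 2.17 and 2.12, while Cd3e and Cd4 differed by 0.17 and 0.30. Scaling to the spike-in controls turned these 2 values to -0.55 and -0.42. The sums were thus higher in Bach2KO for all 3 lists and lower for the alveolar macrophage markers. Each sum rests mainly on its brightest probes. Csf1r, the brightest of the monocyte and interstitial macrophage markers, was 5.59 and 5.66 in WT and 5.71 and 5.68 in Bach2KO. Ccr2, the 1 marker of that list called lower, was 4.33-fold lower. S100a8, the brightest neutrophil marker in Bach2KO, was 0.47 and 0.41 in WT and 4.14 and 4.26 in Bach2KO. With spike-in scaling the direction of the sums held for the neutrophil, T cell and alveolar macrophage markers. The sum of the monocyte and interstitial macrophage markers was then lower in Bach2KO.

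Of 5 measured B cell markers 1 was higher (sums of 0.29 to 0.37 and 0.46 to 0.52), and Ms4a1 and Jchain were not well above background in either genotype. The marker called higher, Cd79b, was not well above background in WT, so its fold is a bound of 2.62. Of 5 endothelial markers 2 were higher (14.2 to 15.2 and 29.7 to 29.8), with Tek and Emcn not well above background in either. Of 7 lung epithelial markers 2 were higher and 1 lower (3.81 to 3.90 and 4.70 to 4.73), with Sftpa1 and Nkx2-1 not well above background in either genotype, Sftpb not in WT, and Epcam and Ager not in Bach2KO. Of 3 eosinophil markers none was called (0.06 to 0.12 and 0.09 to 0.18), with Epx not well above background in either genotype and Prg2 not in WT. With spike-in scaling the endothelial sum was still higher in Bach2KO on both arrays, the epithelial sum was lower and the B cell and eosinophil sums overlapped. The higher call among the B cell markers (Cd79b) ended with spike-in scaling and in both normexp settings. With spike-in scaling 1 endothelial marker and none of the epithelial ones was higher, and 1 epithelial marker was higher in both normexp settings. The part of these cells in the differences of the oxidation and PPAR genes was not tested.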

How the data were processed

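The scanner files hold spot intensity, background-subtracted and detrended within each array, per the file headers, by version 10.7.3.1 of Agilent Feature Extraction (9.1 per the submitters' processing notes), and not normalized between arrays. The deposited value table holds log2 values, each the log2 processed signal of its array minus a constant (SD of the difference at most 3.5e-07 for probes with 1 spot), with column medians of -3.58, -3.67, -3.53 and -3.45. All 4 arrays were on 1 slide.

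From the intensities, 109 to 136 outlier spots per array of 43020 were left out, no spot being saturated (0), spots of a probe were averaged as log2, and each array's 75th percentile over non-control spots was subtracted. Symbols came through unversioned accessions from the RefSeq gene table of GRCm38.p6, which named 26055 of 39429 probes with 1 symbol, 0 with several and 13374 with none. The array design is on mm9, so only the promoter windows carry coordinates. No test was run, since each genotype is 1 RNA sample. Where a genotype did not have a gene well above background on both arrays, the fold is a bound: the bright mean over the dim arrays' own signal, raised on each to the lowest signal of any probe well above background. The call rule was tested on simulated data. Python 3.11.15, pandas 2.3.3 and limma 3.58.1 (normexp only) in R 4.3.3 were used.

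The genes, lists and alternatives were chosen with earlier results of these data known, and the crossed pairing and the Hadha and Hadhb sequence after the values were seen. All 33 genes were named, and from each further list the called genes, at most 6 per direction by size, or the 2 brightest with none called, beside Pparg, Rxra and Esrra, while 1 called gene is not reported here. From marker lists the text names Siglecf and genes not well above background. Rxrb, Rxrg, Csf1r, Ccr2, S100a8, Cd3e, Cd4, Cd79b and, as a marker, Fabp4 were named after their values were seen. Alternatives were other scalings, normexp with an offset of 50, the value table, other filters and thresholds, use of outlier spots, probe means per gene, replicate blocks and leaving out each array.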

Additional observations from a re-analysis of the deposited data

How the results depend on the processing

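All 5 genes called lower kept that call under median centring, quantile normalization, either normexp setting, the deposited value table, spike-in scaling, the other filters, the probe mean, a 1.5-fold limit and without each array in turn. With a 3-fold limit 2 were called lower. With spike-in scaling 12 were called lower and 0 genes had both Bach2KO arrays above both WT arrays, and the added calls were Acadm, Acads, Hadhb, Ucp2, Slc25a20, Acaa1a and Eci2. With a 1.5-fold limit 2 genes, Acadl and Crat, were called higher. The median difference of -0.31 became -0.42 with median centring, -1.04 with spike-in scaling, -0.28 after normexp with percentile scaling, -0.37 after normexp with quantile normalization, -0.28 with the value table and -0.27 with no filter on dim probes, which added Ppargc1a. Without each array in turn it was between -0.33 and -0.30. With the replicate number as a block, only same-numbered arrays being paired, 5 genes were called lower, 0 higher, 22 had both Bach2KO arrays below their WT partners and 9 above. The replicate numbers do not pair the samples (correlation of array differences over genes -0.14), and the crossed replicate block, chosen after seeing the data, gave the same 5, 0, 22 and 9. With 2 arrays of 1 RNA sample per genotype, the spread between mice is unknown.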

Other observations

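Relatives of Pdk4 and Ucp2 were measured as well. The pyruvate dehydrogenase kinase gene Pdk3 was 0.45 and 0.42 in WT and -0.80 and -0.75 in Bach2KO, 2.32-fold lower. It alone of 7 kinase, phosphatase and subunit genes of that complex was called lower, and none was called higher. That is 14.3% lower, beside 5.9% of all measured genes. Pdk1 was -0.50 and -0.50 against -1.46 and -1.42, 1.92-fold lower, and Pdk2 differed by -0.17. The phosphatase genes Pdp1 and Pdp2, whose products reverse the phosphorylation, were above 0, at 0.95 and 0.48, and Pdp2 fell below 0 with spike-in scaling (-0.24). The subunit genes Pdha1 and Pdhb differed by -0.07 and 0.08. Ucp3, a relative of Ucp2, was 4.38 and 4.24 in WT and 3.64 and 3.69 in Bach2KO, a difference of -0.65. The genes of these relatives other than Pdk3 were named after their values were seen.

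Beyond the genes called, other peroxisomal genes lay just inside the 2-fold limit. Scp2, which encodes a sterol carrier with thiolase activity, was 5.04 and 5.04 in WT and 4.06 and 4.05 in Bach2KO, 1.98-fold lower, and the dienoyl-CoA isomerase gene Ech1 was 3.76 and 3.84 against 2.82 and 2.84, 1.96-fold lower. Both were called lower with spike-in scaling, at -1.71 and -1.69. Scp2 and Ech1 were singled out after their values were seen.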
